A study of Homo sapiens with 6 samples.

Results

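The genes described here encode 10 enzymes of serine, asparagine and folate one-carbon metabolism together with mitochondrial phosphoenolpyruvate carboxykinase, namely PHGDH, PSAT1, PSPH, SHMT1, SHMT2, MTHFD1, MTHFD2, MTHFD1L, ASNS and PCK2. They were chosen by symbol, all 10 were found among the 17646 genes listed for each library, and all 10 passed the filter that left 12003 genes for testing. RNA was sequenced from MDA-MB-231 cells, an established human line of triple negative breast cancer, 48 h after transfection with siUSP32, an siRNA against the deubiquitinase gene USP32, or with siControl, a control siRNA. Each group held 3 libraries of the same cell line. The labels do not say whether these came from separate cultures, so the spread between libraries may be technical. The sources used here give neither the siRNA sequences nor how many siRNAs were pooled, and with 1 USP32 siRNA condition a loss of USP32 and other effects of that reagent cannot be told apart.

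Cells make serine from the glycolytic intermediate 3-phosphoglycerate in a short cytosolic pathway, and serine hydroxymethyltransferases then pass a carbon of serine to folate. In the mitochondria this carbon is carried by folate enzymes to formate, which leaves for the cytosol and is used there for purine and thymidylate synthesis. Parallel cytosolic enzymes can run the same steps, mostly in the reverse direction in proliferating cells. Many genes of the pathway are known targets of ATF4, the transcription factor of the amino acid and integrated stress response. MDA-MB-231 is known as a breast cancer line with little serine synthesis compared with lines that carry extra copies of PHGDH.

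Values are FPKM, fragments divided by transcript length in kilobases and by the library's mapped total. Levels are set against each other between genes on that basis, though the lengths used and the treatment of shared reads were not given. Differences are siUSP32 minus siControl on the log2(FPKM + 1) scale, with the standard error of a limma fit over all 12003 genes, and folds are ratios of mean FPKM. A gene is said to be called where that fit gave a Benjamini-Hochberg adjusted p under 0.05. The 10 genes were picked with values of this contrast already known, so their differences are a description, and no p-value is attached to them.

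USP32 itself was at 2.0, 1.88 and 2.01 FPKM in the siUSP32 libraries, against 7.5, 7.48 and 8.32 FPKM in the siControl libraries. The FPKM of all listed genes summed to 855573 to 948641 in siUSP32 libraries and to 686376 to 694831 in siControl libraries. Of the line's markers, VIM averaged 1658 FPKM in siUSP32 and 1085 FPKM in siControl. ESR1 and CDH1 were under 1 FPKM in each library. Among markers of other cell types, the leukocyte marker PTPRC averaged 0.00667 FPKM in siUSP32 and was listed at 0 in siControl. ALB averaged 0.01 FPKM in siUSP32 and was listed at 0 in siControl. PECAM1 averaged 0.407 FPKM in siUSP32 and 1.02 FPKM in siControl. COL1A1 averaged 0.803 FPKM in siUSP32 and 1.89 FPKM in siControl, and was called lower. CD44 and AXL, also markers of this line, were detected in both groups and were lower in siUSP32, while ERBB2 and EPCAM were low but detected, at 3.60 and 4.24 FPKM in siUSP32 and 12.0 and 10.5 FPKM in siControl. In such bulk RNA, a larger share of cells with a transcript and more of it per cell cannot be told apart.

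Of the 10 enzyme genes, 8 were called higher in siUSP32, 1 (SHMT1) was called lower and 1 (MTHFD1) was not called. Over all 12003 genes, 74.6% were called, 33.3% higher and 41.3% lower. The values of the siUSP32 and siControl libraries did not overlap for 9 of the 10 genes, and for 77.8% of all genes tested. The median log2 difference was 1.50 over the 10 genes and -0.06 over all genes tested. A log2 difference of at least 1 was reached by 6 of the 10 genes and by 1.97% of all genes. Since the choice of genes used this contrast, nothing is read from these shares.

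**Figure D1:**
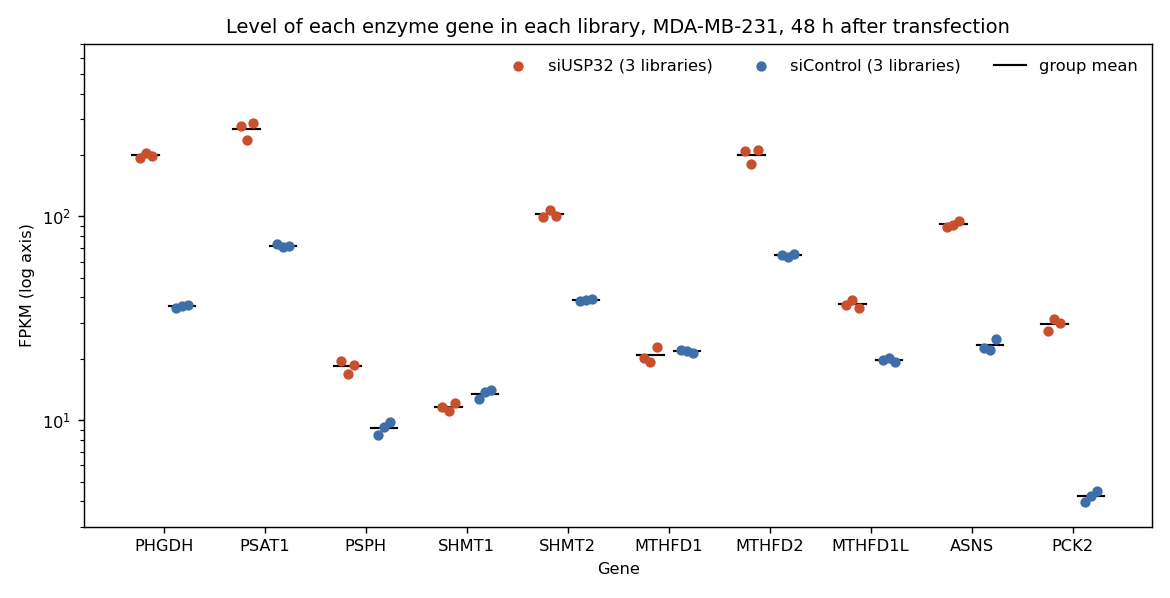
FPKM of each of the 10 enzyme genes (log axis) in the 3 siUSP32 libraries (left of each pair) and the 3 siControl libraries (right), with group means as lines. The siUSP32 points lie above the siControl points for 8 genes, below them for SHMT1 and among them for MTHFD1.

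The 3 enzymes that build serine were all higher, the first of them most. PHGDH (Entrez 26227, plus strand of chromosome 1 at 119648411 to 119744226 in GRCh38) encodes phosphoglycerate dehydrogenase, which draws 3-phosphoglycerate out of glycolysis. It was at 192.3, 205.32 and 198.49 FPKM in siUSP32 and at 35.57, 36.33 and 36.67 FPKM in siControl. The lowest siUSP32 library was 5.24 times the highest siControl library, and the means gave a 5.49-fold higher level (log2 difference 2.42 ± 0.047 SE).

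PSAT1 (Entrez 29968, plus strand of chromosome 9 at 78297143 to 78330093) encodes phosphoserine aminotransferase, the next step, which takes its amino group from glutamate. It was at 277.21, 237.81 and 287.73 FPKM in siUSP32 and at 73.11, 70.64 and 71.84 FPKM in siControl. The groups lay far apart, with a 3.72-fold higher mean in siUSP32 (log2 difference 1.88 ± 0.071 SE), and PSAT1 had the highest mean level of the 10 genes in both groups.

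PSPH (Entrez 5723, minus strand of chromosome 7 at 56011051 to 56051604) encodes phosphoserine phosphatase, which releases free serine. It was at 19.56, 16.92 and 18.72 FPKM in siUSP32 and at 8.48, 9.22 and 9.79 FPKM in siControl. The groups did not overlap, and the mean was 2.01-fold higher (log2 difference 0.93 ± 0.075 SE, and 0.59 when libraries were rescaled to the same sum). This last enzyme of the pathway had a lower level per length than the 2 before it in each library.

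The serine hydroxymethyltransferases split by compartment. SHMT2 (Entrez 6472, plus strand of chromosome 12 at 57229327 to 57234935), the mitochondrial enzyme that turns serine into glycine and loads the carbon onto folate, was at 99.28, 107.43 and 100.35 FPKM in siUSP32. In siControl it was at 38.46, 38.74 and 39.11 FPKM. All siUSP32 libraries were above all siControl libraries, by 2.64-fold in the means (log2 difference 1.38 ± 0.049 SE).

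SHMT1 (Entrez 6470, minus strand of chromosome 17 at 18327860 to 18363563), the cytosolic counterpart, was at 11.61, 11.13 and 12.12 FPKM in siUSP32 and at 12.71, 13.68 and 14.08 FPKM in siControl. The siUSP32 libraries were lower without overlap, by 1.16-fold in the means (log2 difference -0.20 ± 0.063 SE, -0.54 with libraries rescaled to the same sum and -0.00 after quantile normalization, where the call was lost). The call was also lost with median-ratio scaling (-0.13) and without siUSP32 library 1 (-0.20), siControl library 2 (-0.19) or siControl library 3 (-0.17).

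The folate dehydrogenase genes showed the same division. MTHFD2 (Entrez 10797, plus strand of chromosome 2 at 74198562 to 74217565), the mitochondrial methylenetetrahydrofolate dehydrogenase and cyclohydrolase, was at 209.52, 179.88 and 211.77 FPKM in siUSP32 and at 64.5, 63.31 and 64.96 FPKM in siControl. The lowest siUSP32 library was 2.77 times the highest siControl library, with a fold of 3.12 between means (log2 difference 1.62 ± 0.066 SE).

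MTHFD1L (Entrez 25902, plus strand of chromosome 6 at 150865549 to 151101887) encodes the mitochondrial formyltetrahydrofolate synthetase that releases formate. It was at 36.57, 38.89 and 35.51 FPKM in siUSP32 and at 19.65, 20.21 and 19.27 FPKM in siControl. The groups did not overlap, and the fold was 1.88 (log2 difference 0.87 ± 0.055 SE, and 0.52 with libraries rescaled to the same sum).

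MTHFD1 (Entrez 4522, plus strand of chromosome 14 at 64388031 to 64463457), the cytosolic enzyme that holds all 3 of these folate activities in 1 protein, was at 20.15, 19.38 and 22.76 FPKM in siUSP32. In siControl it was at 22.09, 21.73 and 21.47 FPKM. The groups overlapped, with siUSP32 library 3 above every siControl library (log2 difference -0.07 ± 0.066 SE). Its difference was -0.42 and was called with libraries rescaled to the same sum, and it was 0.01 after quantile normalization and 0.00 after correction for transcript length, where it was not called.

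ASNS (Entrez 440, minus strand of chromosome 7 at 97852118 to 97872542) encodes asparagine synthetase, which makes asparagine from aspartate and glutamine. It was at 89.07, 90.22 and 94.66 FPKM in siUSP32 and at 22.59, 22.12 and 25.08 FPKM in siControl. The groups lay apart by 3.93-fold in the means (log2 difference 1.93 ± 0.060 SE).

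PCK2 (Entrez 5106, plus strand of chromosome 14 at 24094053 to 24110598) encodes mitochondrial phosphoenolpyruvate carboxykinase, which makes phosphoenolpyruvate from oxaloacetate and so can feed serine synthesis from below. It was at 27.26, 31.29 and 29.85 FPKM in siUSP32 and at 3.98, 4.27 and 4.5 FPKM in siControl. This was the largest fold of the 10 genes, 6.93 (log2 difference 2.54 ± 0.071 SE), and the gene with the lowest mean level in siControl ranked 7 of 10 in siUSP32. PCK1, its cytosolic paralog, averaged 0.01 FPKM in siUSP32 and was listed at 0 in siControl, so PCK2 was the form detected here.

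Among the 12003 genes tested, ordered by log2 difference from the highest, PCK2 stood at 9, PHGDH at 11, ASNS at 20, PSAT1 at 23, MTHFD2 at 34 and SHMT2 at 69. PSPH and MTHFD1L stood at 302 and 402. MTHFD1 and SHMT1 lay near the middle, with 49.7% and 41.2% of the tested genes below them.

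In siUSP32 the order of mean levels was PSAT1, MTHFD2, PHGDH, SHMT2, ASNS, MTHFD1L, PCK2, MTHFD1, PSPH and SHMT1. Of the neighbours in that order, MTHFD2 and PHGDH overlapped between libraries, as did MTHFD1 and PSPH, and the other neighbours did not. In siControl the order was PSAT1, MTHFD2, SHMT2, PHGDH, ASNS, MTHFD1, MTHFD1L, SHMT1, PSPH and PCK2, with no overlap between neighbours, although ASNS and MTHFD1 nearly touched. Together the 10 genes summed to 982.5, 938.3 and 1012 FPKM in siUSP32 and to 301.1, 300.2 and 306.8 FPKM in siControl. As a share of all listed FPKM they made up 0.112%, 0.0989% and 0.118% in siUSP32 and 0.0439%, 0.0437% and 0.0442% in siControl. This share does not change when a library is multiplied by a single factor, though quantile normalization or a correction for length can change it. The groups did not overlap in it.

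The spread between the siUSP32 libraries did not run the same way for all genes. siUSP32 library 2, the one with the highest sum of FPKM, was the highest of its group for PHGDH, SHMT2, MTHFD1L and PCK2 and the lowest for PSAT1, PSPH, SHMT1, MTHFD1 and MTHFD2. The coefficient of variation within siUSP32 lay between 3.23% for ASNS and 9.83% for PSAT1, and within siControl between 0.841% for SHMT2 and 7.17% for PSPH.

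**Figure D2:**
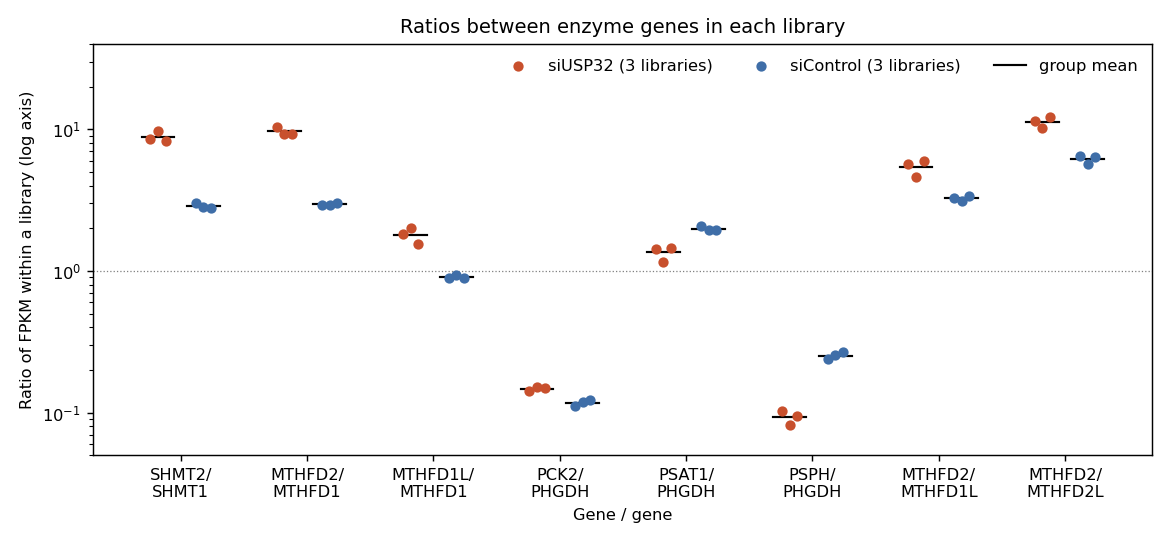
Ratios of FPKM between pairs of enzyme genes within each library (log axis), siUSP32 left of siControl in each pair, with group means as lines. SHMT2/SHMT1 averages 8.83 in siUSP32 and 2.88 in siControl, while PSPH/PHGDH is lower in siUSP32.

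Ratios of 2 genes within a library do not change when the library is multiplied by a single factor, but quantile normalization or a correction for length does change them. The ratio of mitochondrial SHMT2 to cytosolic SHMT1 was 8.55, 9.65 and 8.28 in siUSP32 and 3.03, 2.83 and 2.78 in siControl, a mean of 8.83 ± 0.727 against 2.88 ± 0.131 (SD, n = 3 each). The ratio of MTHFD2 to MTHFD1 was 9.66 ± 0.638 in siUSP32 and 2.95 ± 0.0630 in siControl. For both pairs each siUSP32 library lay well above each siControl library.

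MTHFD1L stood at 1.79 ± 0.224 times MTHFD1 in siUSP32 and at 0.906 ± 0.0215 times in siControl, so in FPKM as deposited the mitochondrial synthetase gene was above its cytosolic counterpart in siUSP32 and below it in siControl. The ratio of MTHFD2 to its close mitochondrial paralog MTHFD2L was 11.3 ± 1.09 in siUSP32 and 6.18 ± 0.420 in siControl. All 4 mitochondrial members (SHMT2, MTHFD2, MTHFD1L and PCK2) were called higher, as were 4 of the 6 cytosolic ones, so the division held within the folate enzymes and not between the compartments as a whole.

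Within the serine pathway the steps shifted against each other. PSAT1 was 1.35 ± 0.166 times PHGDH in siUSP32 and 1.99 ± 0.0603 times in siControl, and PSPH was 0.0928 ± 0.00974 times PHGDH in siUSP32 and 0.253 ± 0.0143 times in siControl. PCK2 stood at 0.148 ± 0.00565 of PHGDH in siUSP32 and at 0.117 ± 0.00541 in siControl. In all 3 ratios the groups did not overlap. As a difference of log2 differences, PCK2 minus PHGDH was 0.11 as deposited, 0.49 after quantile normalization and 0.06 corrected for length, and MTHFD2 minus MTHFD2L was 0.91, 0.49 and 1.27. SHMT2 minus SHMT1 was 1.58 as deposited, 1.23 after quantile normalization and 1.59 corrected for length, and MTHFD2 minus MTHFD1 was 1.69, 1.38 and 1.88. The 0.11 for PCK2 minus PHGDH is smaller than their ratios imply, as the added 1 shrinks the difference of PCK2, at 4.25 FPKM in siControl. With a pseudocount of 0.1 the log2 differences of PCK2 and PHGDH were 2.76 and 2.45, against 2.54 and 2.42 with 1.

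**Figure D3:**
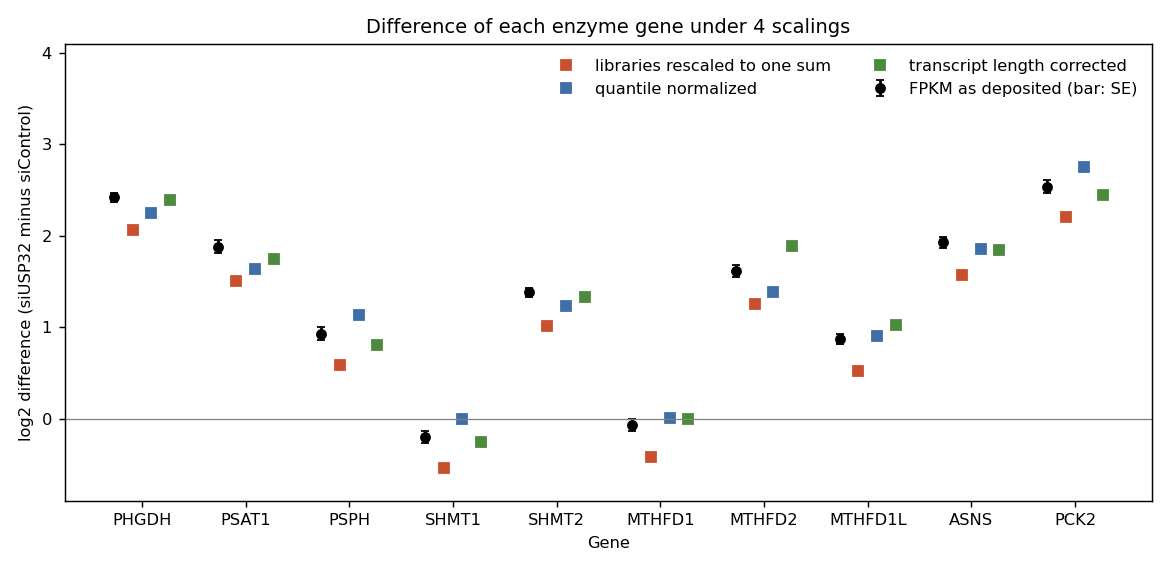
Log2 difference (siUSP32 minus siControl) of each enzyme gene from FPKM as deposited, with the standard error of the limma fit, and after rescaling to one sum, quantile normalization or transcript length correction. The 8 higher genes stay above 0 under all 4, while SHMT1 and MTHFD1 lie at or near 0 under some.

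Scaling moved the median of all genes. With each library rescaled to the same sum, the median log2 difference of all genes tested was -0.38 and that of the 10 enzyme genes 1.13. After quantile normalization these medians were 0.10 and 1.31. The distance between the median of the 10 genes and that of all genes was 1.56 as deposited, 1.51 with the same sum and 1.21 after quantile normalization.

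The difference also went with transcript length, as longer transcripts were lower in siUSP32. The transcripts used for the 10 genes were 2178 bases (PSPH) to 4456 bases (MTHFD2) long, against a median of 3049 bases over the tested genes with a length. After correction of each library for length, the differences of the 8 higher genes lay between 0.81 for PSPH and 2.45 for PCK2. That of MTHFD2, the longest, was 1.89, and that of SHMT1 was -0.26.

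**Figure D4:**
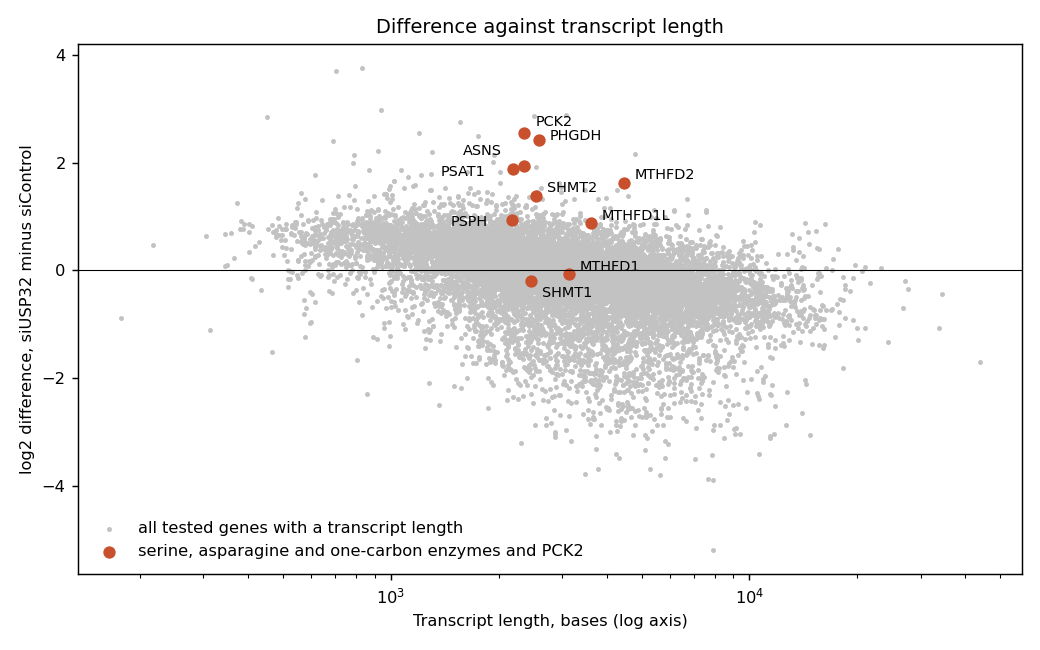
Log2 difference (siUSP32 minus siControl) of each tested gene against transcript length in bases (log axis), with the 10 enzyme genes in colour. At lengths of 2178 to 4456 bases, 8 of them lie toward the top of the cloud. Of these, PCK2 and PHGDH are the highest and PSPH and MTHFD1L the lowest. MTHFD1 and SHMT1 lie inside the cloud.

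Some members share sequence with other loci, and the sources used here do not say how the authors assigned such reads. RefSeq names 7 pseudogenes of MTHFD2, 5 of ASNS, 4 of PSAT1 and 1 each of PSPH, SHMT1 and MTHFD1, and those levels are uncertain to the extent that reads were split. Exons of other GENCODE genes lie over exons of SHMT1, SHMT2, MTHFD1, MTHFD2 and ASNS. The longest such stretches are 1985 bases of the same-strand gene AC079781.5 over ASNS and 1324 bases of SLC4A5, on the opposite strand, over MTHFD2.

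The ASNS promoter is known for an element that binds ATF4, of the C/EBP-ATF type, whose core was searched here as TGATGNAA on both strands. RefSeq promoter windows on GRCh38.p14, each from 250 bases before a start to 50 bases after it, matched 8 of the 10 genes with 12 starts. PSPH and SHMT2 had no window. The core was found for 2 of those 8 genes, ASNS and MTHFD1L, on the strand of the gene, and for 4.46% of the 27305 genes with a window. By window it was in 4 of these 12 and in 3.62% of the 35116 of all genes. The MTHFD1L windows with the core overlap and hold the same site, so the count by window repeats that site. The stretches that hold it are shown with the core in capitals, at chr7:97872458-97872487 on the minus strand for ASNS, where the core begins 68 bases before the first listed start, and at chr6:150866346-150866375 on the plus strand for MTHFD1L, where it begins 129 bases before the first listed of 4 starts and 25 bases into the transcript from another. In both stretches all 30 bases lie in exons annotated by GENCODE, so each core lies in annotated exon although a RefSeq start lies after it.
ASNS: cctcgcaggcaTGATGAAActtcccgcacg
MTHFD1L: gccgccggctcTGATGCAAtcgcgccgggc

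The 150 bases before the start of PSAT1, the highest gene of the set, are given as a member without the core, at chr9:78296975-78297124 on the plus strand. Of these bases, 0 lie in a GENCODE exon.
PSAT1: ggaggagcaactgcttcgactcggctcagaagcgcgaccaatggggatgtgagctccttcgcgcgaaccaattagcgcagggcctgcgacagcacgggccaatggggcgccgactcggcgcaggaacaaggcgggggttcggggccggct

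The MYC E-box core CACGTG, which reads the same on both strands and shares no base with the other core in these windows, was found for MTHFD1L and MTHFD1, and for 8.77% of all genes with a window. Of the genes with either core, ASNS and MTHFD1L were called higher and MTHFD1 was not called. A match is a description of these letters and not a binding site, and a window without one says nothing about other positions.

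The genes around the 10 were taken from lists by role. These lists, like the 10 genes, were drawn up with results of this contrast known, and the genes named from them are mostly those with the smallest adjusted p of their list, so the p-values given with them carry that limit. The counts by list are read against the shares of all 12003 genes called, 33.3% higher and 41.3% lower, or 14.4% higher and 62.2% lower with libraries rescaled to the same sum. Of 15 tested genes of folate transport and interconversion, 7 rose, 6 fell and 2 were not called, and the median log2 difference was 0.18. With libraries rescaled to the same sum, 3 rose and 7 fell (median -0.19). The 6 lower of 15 as deposited are near the 41.3% over all genes. ALDH1L2, the mitochondrial formyltetrahydrofolate dehydrogenase, was low, at 1.81 ± 0.298 FPKM in siUSP32 and 0.317 ± 0.0503 FPKM in siControl, a 5.71-fold rise. Its difference on the log2(FPKM + 1) scale was only 1.09 (limma adjusted p = 5.14e-06), as its siControl values lay below the added 1. MTHFD2L rose 1.7-fold to 17.7 FPKM in siUSP32, against 10.4 FPKM in siControl (log2 difference 0.71, limma adjusted p = 7.05e-06, and 0.37 with the same sum).

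The genes that bring folate into the cell and trim its glutamate tail went the other way. The reduced folate carrier gene SLC19A1 fell to 4.57 ± 0.172 FPKM in siUSP32, against 10.5 ± 0.131 FPKM in siControl (log2 difference -1.05, limma adjusted p = 4.9e-07). The proton-coupled folate transporter gene SLC46A1 fell to 8.61 ± 0.772 FPKM in siUSP32, against 17.5 ± 0.0200 FPKM in siControl (-0.95, limma adjusted p = 2.4e-06; -0.53 corrected for length). GGH, the lysosomal gamma-glutamyl hydrolase gene, fell to 48.6 ± 1.67 FPKM in siUSP32, against 111.1 ± 2.53 FPKM in siControl (-1.18, limma adjusted p = 5.02e-08). The mitochondrial serine transporter gene SFXN1 did not pass the test, at 101.3 ± 5.94 FPKM in siUSP32 and 99.6 ± 2.69 FPKM in siControl. It was named after its values were seen.

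Of 5 tested genes of glycine cleavage and serine breakdown, 3 rose and 2 fell, with a median of 0.36 that was -0.00 with the same sum and 0.08 corrected for length. GCAT, which joins glycine to acetyl-CoA or splits its product, rose 1.96-fold to 19.7 ± 2.39 FPKM in siUSP32, against 10.1 ± 0.520 FPKM in siControl (log2 difference 0.90, limma adjusted p = 1.36e-05, 0.55 with the same sum and 0.58 corrected for length). SDSL, a serine dehydratase-like gene, rose 1.98-fold (limma adjusted p = 9.47e-06; log2 difference 0.88, 0.55 with the same sum and 0.55 corrected for length). GCSH rose 1.29-fold (limma adjusted p = 2.31e-04), though its log2 difference of 0.36 became -0.00 with the same sum. The glycine decarboxylase gene GLDC was low and fell to 1.74 FPKM in siUSP32, against 2.37 FPKM in siControl (limma adjusted p = 0.00664), a log2 difference of -0.30 that was 0.08 after quantile normalization. DLD fell 1.23-fold (limma adjusted p = 0.00905; log2 difference -0.30, -0.66 with the same sum and -0.12 corrected for length).

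Of 14 tested genes of the methionine cycle and transsulfuration, 7 rose, 4 fell and 3 were not called (median 0.05), and the 11 called of 14 are near the 74.6% called over all genes. With the same sum 4 rose and 7 fell (median -0.31), and corrected for length 8 rose and 1 fell. CBS, which condenses serine with homocysteine, rose 2.07-fold to 25.5 ± 1.08 FPKM in siUSP32, against 12.3 ± 0.535 FPKM in siControl (log2 difference 0.99, limma adjusted p = 5.89e-07, and 0.64 with the same sum). APIP of the methionine salvage pathway rose 1.72-fold (limma adjusted p = 8.63e-07), and AHCY, which hydrolyses S-adenosylhomocysteine, rose 1.45-fold (limma adjusted p = 5.34e-06), with log2 differences of 0.77 and 0.53 that were 0.41 and 0.16 with the same sum. The methionine synthase gene MTR fell 1.71-fold (log2 difference -0.61, limma adjusted p = 5.18e-05, and -0.06 corrected for length). AHCYL1 and AMD1 fell by less (log2 differences -0.23 and -0.21, limma adjusted p = 0.00644 and 0.0215), and corrected for length these were -0.02 and -0.09.

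Purine synthesis takes up formate-derived carbon at 2 of its steps, those of the enzymes encoded by GART and ATIC. Among its 13 tested genes, 7 rose and 6 were not called by limma (median 0.18), and 0 fell, also at an unadjusted p under 0.05. With the same sum 2 rose and 7 fell (median -0.19), near the shares of 14.4% and 62.2% over all genes. GART rose to 121.4 ± 5.79 FPKM in siUSP32, against 76.3 ± 2.87 FPKM in siControl (log2 difference 0.66, limma adjusted p = 4.85e-06, and 0.29 with the same sum). ADSL rose 1.47-fold (limma adjusted p = 4.88e-06; log2 difference 0.55, and 0.18 with the same sum). ATIC rose 1.23-fold (limma adjusted p = 3.59e-04), though its log2 difference of 0.30 became -0.07 with the same sum.

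Of 19 tested genes of other amino acid synthesis and interconversion, 13 rose, 1 fell and 5 were not called, and their median was 0.41. With the same sum 7 rose and 5 fell (median 0.07). GPT2, the mitochondrial alanine aminotransferase gene, rose to 19.1 ± 0.471 FPKM in siUSP32, against 6.90 ± 0.275 FPKM in siControl (2.77-fold, log2 difference 1.35, limma adjusted p = 7.2e-08). PYCR1, the mitochondrial enzyme gene of the last step of proline synthesis, rose 2.53-fold to 25.3 ± 1.29 FPKM in siUSP32 (log2 difference 1.26, limma adjusted p = 3.58e-07). GOT1, the cytosolic aspartate aminotransferase gene, rose 1.89-fold (limma adjusted p = 5.8e-07; log2 difference 0.88, and 0.52 with the same sum).

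Lower glycolysis and gluconeogenesis, which supplies 3-phosphoglycerate, held 10 genes that rose, 1 that fell and 4 that did not pass among 15 tested (median 0.27). With the same sum 4 rose and 6 fell (median -0.06). The malic enzyme gene ME1 rose 2.16-fold to 14.6 ± 1.15 FPKM in siUSP32, against 6.76 ± 0.471 FPKM in siControl (log2 difference 1.01, limma adjusted p = 2.88e-06, and 0.67 with the same sum). MDH2 rose 1.55-fold (limma adjusted p = 1.16e-05; log2 difference 0.63, and 0.26 with the same sum). ENO1 rose 1.44-fold (limma adjusted p = 1.49e-05), though its log2 difference of 0.53 became 0.16 with the same sum and -0.03 after quantile normalization. G6PC3 fell 1.22-fold (limma adjusted p = 0.00426; log2 difference -0.29, -0.65 with the same sum and -0.59 corrected for length). PC, which makes the oxaloacetate used by PCK2, was at 11.9 ± 1.32 FPKM in siUSP32 and 11.3 ± 0.197 FPKM in siControl and did not pass the test. It was named after its values were seen.

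**Figure D5:**
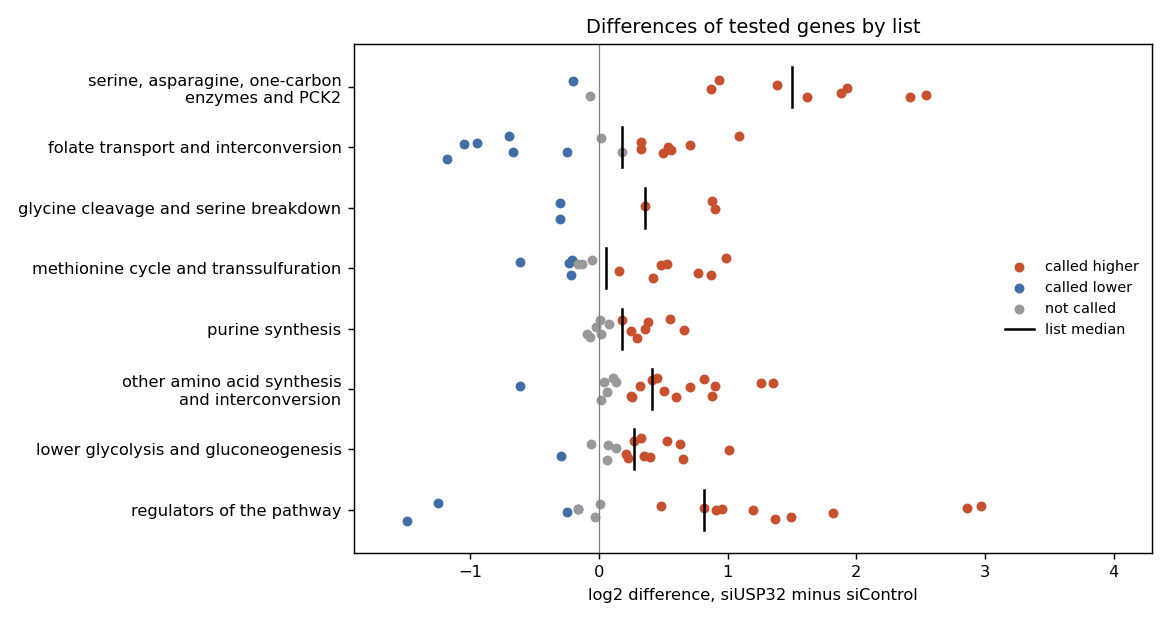
Log2 difference (siUSP32 minus siControl) of the tested genes of each list, coloured by the call of the limma fit, with the list median as a line. The 10 enzyme genes at the top have a median of 1.50, and the neighbouring lists have medians of 0.05 to 0.82.

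Of 17 tested regulators of the pathway 10 rose, 4 fell and 3 were not called (median 0.82). With the same sum 9 rose and 7 fell (median 0.46), and 2 fell with median-ratio scaling or quantile normalization, or without siUSP32 library 1, siControl library 1 or siControl library 2. ATF4 averaged 480.5 ± 38.8 FPKM in siUSP32 and 135.0 ± 0.140 FPKM in siControl, a 3.56-fold rise (log2 difference 1.82, limma adjusted p = 1.63e-08). DDIT3 and TRIB3, both induced by ATF4, rose by 2.97 and 2.86 on the log2 scale (limma adjusted p = 2.95e-09 and 1.82e-09). Of the kinases that phosphorylate eIF2 and so raise ATF4 translation, EIF2AK3, the sensor of the endoplasmic reticulum, fell to 1.54 ± 0.135 FPKM in siUSP32, against 5.04 ± 0.571 FPKM in siControl (log2 difference -1.25, limma adjusted p = 1.64e-06). EIF2AK4, the amino acid sensor, fell 1.22-fold (limma adjusted p = 0.0222), though its log2 difference of -0.25 became 0.06 after quantile normalization and 0.11 corrected for length. EIF2AK2 was called lower (log2 difference -0.16, limma adjusted p = 0.0311), but was 0.10 after quantile normalization and 0.39 corrected for length. EIF2AK1 was not called, at 48.2 ± 5.37 FPKM in siUSP32 and 49.2 ± 0.574 FPKM in siControl. EIF2AK1 and EIF2AK2 were named after their values were seen. PPP1R15B, a subunit of the phosphatase that reverses the phosphorylation, fell 2.99-fold (log2 difference -1.49, limma adjusted p = 1.94e-07). PPP1R15A, the stress-induced subunit of the same phosphatase, rose 2.34-fold to 90.0 ± 6.68 FPKM in siUSP32, against 38.4 ± 0.0737 FPKM in siControl (limma adjusted p = 1.74e-07), and was named after its values were seen. MYC, also a known activator of serine and one-carbon genes, rose 2.93-fold to 13.3 ± 0.883 FPKM in siUSP32, against 4.53 ± 0.286 FPKM in siControl (log2 difference 1.37, limma adjusted p = 2.8e-07). It was named after its values were seen.

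The tested genes outside the set whose profile over the 6 libraries lay closest to a member's were found by the Euclidean distance between log2 deviations from each gene's own mean. For PHGDH they were DDIT4 (distance 0.138), GDF15 (0.263) and HBE1 (0.305). For PCK2 they were GDF15 (0.203), DDIT4 (0.226) and MT1F (0.336). For ASNS they were TPM4 (0.136), SAT1 (0.181) and IL1B (0.194), with log2 differences of 1.92, 1.85 and 1.83 beside 1.93 for ASNS. For SHMT1 they were NEIL1 (0.0421), LOC100421372 (0.0511) and RALB (0.0570), all with small differences of -0.17 to -0.24. With 6 libraries in 2 groups, this distance mostly compares the size of the difference between groups.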

How the data were processed

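Per the labels' protocols, RNA was taken up in Trizol and libraries followed MGISEQ-2000RS protocols. The authors deposited FPKM with 2 decimals, 1 table per library, per the file headers. The submitters' processing notes name GRCh38.p13 as the build. The aligner, counter, annotation, filters and treatment of strand or shared reads were not given in the sources used here. FPKM are not counts and the depth is unknown, so no count model and no counting interval was used.

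The 12003 genes averaging 1 FPKM or more over the 6 libraries were compared as log2(FPKM + 1) with limma 3.58.1 in R 4.3.3 (mean-variance trend, no covariate, 2-sided, Benjamini-Hochberg over all genes). Alternatives were a pseudocount of 0.1, no filter, a minimum of 5, median-ratio scaling, rescaling of libraries to the same sum (TPM), quantile normalization, a loess correction for transcript length (span 0.5, robust form, chosen after seeing the data), leaving out each library, and a block for the replicate number. Lengths and coordinates came from GENCODE 29 (GRCh38) through Entrez identifiers, promoters from RefSeq (GRCh38.p14).

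The members and the 7 pathway lists were chosen with earlier results of these data known. The rule for named genes took all members, up to 3 called genes per list and direction by adjusted p, and the 3 closest profiles to PHGDH, PCK2, ASNS and SHMT1. The ratios of PSAT1 and PSPH to PHGDH and of MTHFD2 to MTHFD1L and MTHFD2L were added after the data were seen. Of the marker list, PGR was not analysed here. Some genes that the naming rule took are not reported here.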

Additional observations from a re-analysis of the deposited data

How the results depend on the processing

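The 8 higher enzyme genes kept their direction and their call in the 14 alternatives run for each, and their count stayed at 8. SHMT1 kept its direction and lost its call in 5 of 14, so the count of enzyme genes called lower was 0 with median-ratio scaling and with quantile normalization, 2 with TPM, where MTHFD1 was called, and 0 to 1 with 1 library left out. Over all genes, 4001 were called higher and 4956 lower; with TPM these were 1723 and 7462, with quantile normalization 5253 and 3604, and at a minimum FPKM of 5 they were 3577 and 3068.

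For the pathway lists TPM gave folate 3 higher, methionine cycle 4 higher and 7 lower, purine 2 and 7, other amino acid 7 and 5, lower glycolysis 4 and 6, and regulators 7 lower. Counts of lower genes were, for glycine cleavage, 1 at a minimum FPKM of 5, 1 with quantile normalization and 0 with the length correction; for the methionine cycle, 2 with median-ratio scaling and 1 with the length correction; for purines, 1 with quantile normalization and 2 with the length correction; for other amino acids, 3 with no filter; for lower glycolysis, 3 with quantile normalization and 2 with the length correction; and for regulators, 2 with median-ratio scaling and 2 with quantile normalization. With 1 library left out, lower counts ran from 2 to 5 for the methionine cycle (2 without siControl library 3) and from 2 to 5 for the regulators (2 without siUSP32 library 1, siControl library 1 or siControl library 2). The cause of these changes was not tested.

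With the replicate number as a block 4016 genes were higher and 4979 lower, with 8 and 1 of the enzyme genes, and no enzyme gene changed its call. Same-numbered libraries correlated at -0.0766, 0.0706 and 0.119 in their deviations from group means, so the numbers were not taken to pair the libraries. No sequencing depth is known, so the lowest levels, those of PCK1 among them, cannot be given a detection limit.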
